A study of Mus musculus with 6 samples.

Results

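UTX occupancy was examined at 10 genes of transforming growth factor beta (TGF-beta) signalling: the ligand gene Tgfb1, the receptor genes Tgfbr1 and Tgfbr2, the SMAD genes Smad2, Smad3, Smad4 and Smad7, the ubiquitin ligase gene Smurf1, and the repressor genes Ski and Skil. Their sites are the rows of the authors' deposited table that carry one of these gene symbols, 26 of the 6739 sites listed. Of the 10 genes, 9 had a site and Smad4 had none. Of all protein-coding genes, 22.1% had a listed site lower in UTX-deficient cells. The members were chosen by measured values, the authors' fold and FDR of UTX-deficient against WT cells. Each listed site had been kept for its difference between the genotypes, so the direction and size of the differences below describe how the sites were chosen and are not a test of these genes.

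The samples were progenitor CD8+ T cells, sorted as Ly108+ CXCR6- from the pancreatic lymph nodes of NOD mice that carry the NY8.3 transgenic T cell receptor, which recognises an islet antigen. One group of 3 samples was UTX-deficient, with UTX deleted in T cells (UTXTCD.NY8.3), and the other 3 samples were WT NY8.3 cells. All 6 therefore carry the NY8.3 receptor on the NOD background. The Cre driver, the deleted part of the gene, the age of the mice and the number of mice behind each sample are not given in the sources used. CUT&Tag, in which an antibody tethers the Tn5 transposase to a chromatin protein so that nearby DNA is cut and sequenced, was done with an antibody against UTX, to ask where on the genome UTX is bound.

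UTX, the product of Kdm6a, is a demethylase that removes methyl groups from lysine 27 of histone H3, and it is a subunit of complexes that act at promoters and enhancers. TGF-beta restrains T cell activation and supports stem-like and tissue-resident CD8+ T cell states. The ligand brings the type II and type I receptors together, the activated type I receptor phosphorylates SMAD2 and SMAD3, and these enter the nucleus with SMAD4. SMAD7 and the ubiquitin ligase SMURF1 turn the receptor off, and the related proteins SKI and SKIL (also called SnoN) bind SMADs and hold their target genes silent.

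The table gives a mean per group, from which whole reads per library were recovered at all 26 sites. The recovered libraries carry no replicate number and are named by their depth, which averages 1 over the 6 libraries. Depth was 1.93, 1.07 and 0.00577 in the deepest, second and near-empty UTX-deficient libraries, against 1.28, 0.916 and 0.792 in the deepest, second and shallowest WT libraries. Numbers of reads are given in this order throughout. The near-empty library had a depth 335.1 times below that of the deepest and held 0 reads at all 26 sites. Normalized reads are reads divided by the depth of the library. At the WT level the near-empty library would have held 7.61 reads over the 26 sites together and at most 0.784 at any one. One of its reads is worth 173.18 normalized reads, more than the highest WT mean of the 26 sites, 135.8. A site with such a read would hardly have been listed as lower, and this library held 0 reads at all solved sites lower in UTX-deficient cells. Its 0 therefore goes with how the sites were chosen and is not a measure of UTX signal, in the sum or at a single site. Levels in UTX-deficient cells are given for the other 2 libraries.

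The targeted gene, Kdm6a, had 1 listed site with 8, 12 and 0 reads in UTX-deficient cells, against 65, 48 and 35 in WT cells, which is UTX occupancy at the locus in a table of called sites and does not check the genotype. Sites were listed at 6 of 7 CD8 T cell markers and at 1 of 12 markers of other cells, which was Cd4. Cxcr6, whose product was used to exclude cells in the sort, had 2 sites. Occupancy is not expression, so these sites do not check the labelled cell type. In bulk samples, fewer bound cells and less binding per cell cannot be told apart.

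A transcription start could be placed for 6 of the 9 genes, and at 3 of them, Tgfb1, Tgfbr1 and Smad3, a site covered the whole stretch of 250 bases in front of an annotated transcription start. These stretches are shown because they are the promoter DNA on which UTX signal was lost. They are RefSeq sequences of build GRCm38.p6, the assembly behind mm10, read in the direction of transcription and ending at the base before the start. Capitals mark matches on either strand to the SMAD core GTCT, the short element that SMAD3 and SMAD4 bind. They also mark matches on either strand to the GC box GGGCGG, an element bound by SP1-type factors, and none of these matches overlaps one of the other kind. The windows are chr7:25686752-25687001 on the plus strand for Tgfb1, chr4:47352972-47353221 on the plus strand for Tgfbr1, and chr9:63757995-63758244 on the minus strand for Smad3.
Tgfb1: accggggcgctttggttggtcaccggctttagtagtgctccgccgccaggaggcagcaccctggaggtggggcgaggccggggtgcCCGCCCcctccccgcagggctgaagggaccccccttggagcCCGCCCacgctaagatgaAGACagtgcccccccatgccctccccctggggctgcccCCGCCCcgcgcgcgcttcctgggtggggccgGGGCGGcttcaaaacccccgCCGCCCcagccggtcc
Tgfbr1: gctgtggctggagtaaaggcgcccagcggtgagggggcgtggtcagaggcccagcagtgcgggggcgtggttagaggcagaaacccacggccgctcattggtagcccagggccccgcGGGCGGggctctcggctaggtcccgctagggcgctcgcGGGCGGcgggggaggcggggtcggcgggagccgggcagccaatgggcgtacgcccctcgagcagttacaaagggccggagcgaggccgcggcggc
Smad3: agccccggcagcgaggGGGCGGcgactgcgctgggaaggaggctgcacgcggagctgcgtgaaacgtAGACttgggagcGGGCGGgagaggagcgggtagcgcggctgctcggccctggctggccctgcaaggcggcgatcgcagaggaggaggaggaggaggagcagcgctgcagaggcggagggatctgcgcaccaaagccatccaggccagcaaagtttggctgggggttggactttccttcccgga
All 3 are rich in CpG. They hold 21, 29 and 22 CpG dinucleotides in the order shown, against a median of 6 over 32851 promoter windows of the same length, and their GC content is 75.2%, 74.8% and 69.2%, against a median of 52.4%. This is not particular to the covered windows. Of the windows that no site covered, those of Ski and Smurf1 hold 53 and 38 CpG (GC content 87.6% and 74.8%). Those of Tgfbr2 and a second start of Tgfbr1 hold 12 and 3 (58.4% and 52.8%). The GC box occurs 5 times in Tgfb1, 2 times in Tgfbr1 and 2 times in Smad3, and 32.7% of all the windows hold at least 1. The SMAD core occurs 1 time in Tgfb1, 0 times in Tgfbr1 and 1 time in Smad3, which is little beside the 82.9% of windows that hold this very short element. The ETS core CCGGAA, searched on both strands and present in 12.0% of windows, was in none of the 3. These matches are letters in a window and not binding sites.

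All 26 sites had less UTX signal in UTX-deficient cells, and both deep UTX-deficient libraries lay below each of the 3 WT libraries at all 26. Of the tests behind the authors' FDR 81.0% were called in this direction, and the table lists the called sites, of which 99.7% are lower in UTX-deficient cells. The same separation of the libraries held at 99.7% of all solved sites, so the count of 26 says nothing particular about these genes. Summed over the 26 sites the UTX-deficient libraries held 60, 106 and 0 reads, against 1608, 1357 and 963 in the WT libraries. Per site this is a mean of 1.19 and 3.80 normalized reads in the deep UTX-deficient libraries, against 50.7 ± 5.49 in WT cells (SD, n = 3). The deep UTX-deficient libraries thus lay 20.3-fold below WT cells at these sites, and 16.8-fold below at all sites lower in UTX-deficient cells. The value depends on the library. The deepest alone lay 42.5-fold below WT cells at the 26 sites and 34.7-fold below at all lower sites, and the second alone lay 13.3-fold and 11.1-fold below. With the near-empty library counted at 0, the 3 together lay 30.5-fold below at the 26 sites and 25.2-fold below at all lower sites.

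The median log2 fold of the 26 sites was -3.96 in the authors' deposited table, with a range of -5.94 to -2.71, against a median of -3.51 for all sites lower in UTX-deficient cells. The median WT concentration, the log2 of the mean normalized reads, was 5.38 at the 26 sites and 4.94 at all lower sites. The medians stand apart in WT signal as well as in fold, and the part of one in the other was not tested. In UTX-deficient cells the concentration was listed at 0, the lowest value the table gives, at 30.8% of the 26 sites and at 37.6% of all sites. A fold against such a value depends on how the authors fitted it, and for this reason the share of signal left is given below as reads per unit depth of the 2 deep UTX-deficient libraries in percent of the 3 WT libraries. It had a median of 3.93% over the 26 sites and of 4.90% over all lower sites.

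**Figure D1:**
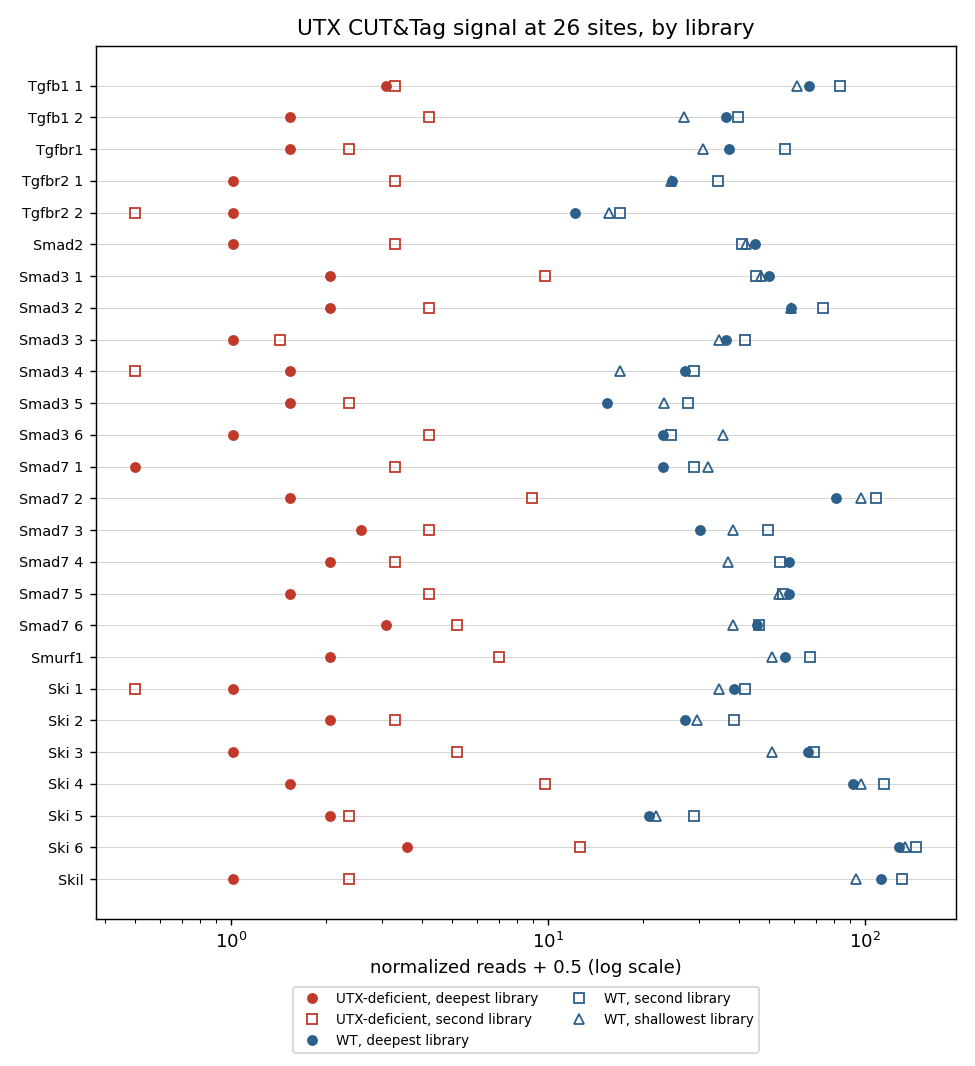
Normalized reads plus 0.5 (log scale) at the 26 sites, 1 row per site, numbered along the chromosome within each gene, with red for the deep UTX-deficient libraries and blue for the WT libraries. The near-empty UTX-deficient library had 0 reads at every site and is not drawn. In every row both red points lie left of the 3 blue points.

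The 2 deep UTX-deficient libraries did not hold the same signal. The second had more normalized reads than the deepest at 23 of the 26 sites, and its mean over the sites was 3.19 times that of the deepest, against 3.13 times over all lower sites. The gap was about as large outside these genes. The sites rest on few reads in these cells, with 1 to 19 reads in the 2 libraries together and 5 or fewer at 12 of the 26, against 42 to 403 reads in the 3 WT libraries. The 95% intervals given with the share of signal left are exact intervals for the ratio of these counts. They cover counting error only. The reads of a genotype were summed over its libraries, so differences between libraries, such as the 3.19-fold one above, are left out and the intervals are too narrow for them. Copies of a molecule made by PCR cannot be told apart here either.

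**Figure D2:**
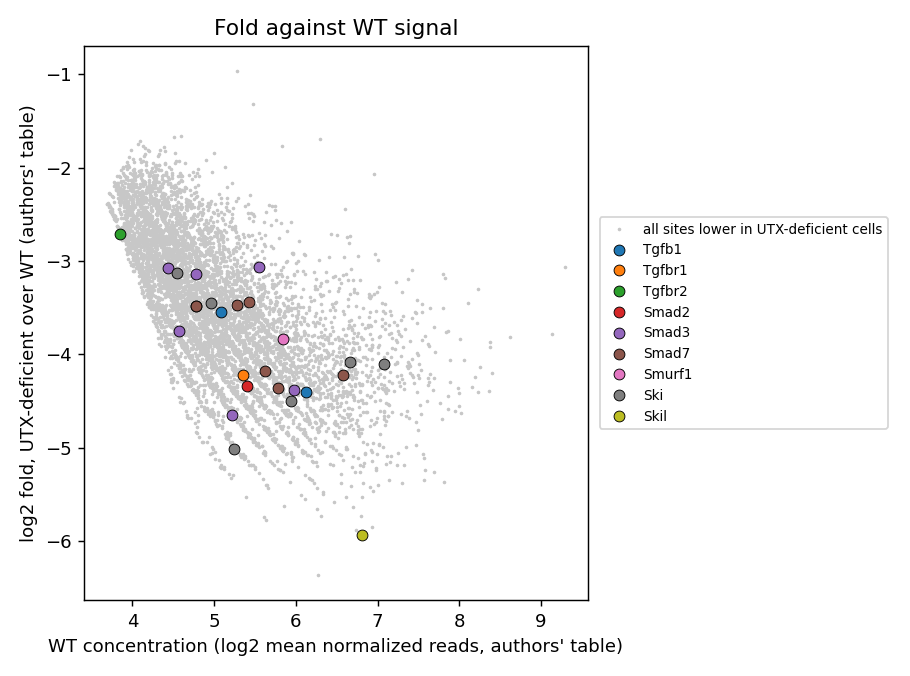
Log2 fold of UTX-deficient over WT cells against WT concentration, both from the authors' table, for all sites lower in UTX-deficient cells (grey) and the 26 sites (coloured by gene). The Skil site lies at the lower edge with a fold of -5.94, and the outer Tgfbr2 site lies at the left edge with the lowest WT concentration of the 26, while the inner Tgfbr2 site is hidden behind a Smad7 site.

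The ligand gene Tgfb1, which codes for TGF-beta 1, had 2 sites. The first, chr7:25686741-25687141, covers the transcription start and the promoter stretch shown above. It held 5, 3 and 0 reads in UTX-deficient cells, against 85, 76 and 48 in WT cells, where it averaged 70.0 ± 11.6 normalized reads (SD, n = 3). No library of one genotype came near the other, and 3.80% of the signal was left (95% interval 1.62 to 7.63), and the authors' deposited table gives a log2 fold of -4.40 (FDR 1.9e-17). The gene B9d2, which codes for a protein of the ciliary transition zone, has an end 379 bp from the middle of the site, so the signal could be assigned to either gene. The second site, chr7:25689248-25689648, lies 2446 bp after the start inside the gene. It held 2, 4 and 0 reads in UTX-deficient cells, against 46, 36 and 21 in WT cells, and in WT cells each library had less signal there than at the start.

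Both receptor genes had weaker sites than the start of Tgfb1. Tgfbr1, the type I receptor kinase that phosphorylates SMAD2 and SMAD3, had 1 site, chr4:47352904-47353304, which covers its start and the promoter stretch shown above. That site held 2, 2 and 0 reads in UTX-deficient cells, against 47, 51 and 24 in WT cells. The authors' deposited table gives it a fold of -4.22 (log2), and 3.26% of the signal was left (0.873 to 8.55). The gene model Gm32435 overlaps it. Tgfbr2, the type II receptor that binds the ligand first, had 2 sites and neither was at its start. One, chr9:116123024-116123424, lies inside the gene 52139 bp after the start and held 1, 3 and 0 reads in UTX-deficient cells, against 31, 31 and 19 in WT cells. The other, chr9:116181394-116181794, lies 6231 bp before the start and held 1, 0 and 0 reads in UTX-deficient cells, against 15, 15 and 12 in WT cells. The gene model Gm40582, at 2787 bp, is nearer to it than Tgfbr2, at 6031 bp. This outer site had the lowest WT mean of the 26, at 14.4 ± 2.41 normalized reads in WT cells (SD, n = 3), and had the smallest fold, -2.71. Its FDR of 0.0404 in the authors' deposited table was the one closest to the limit of 0.05 among the 26, and sites past that limit are not used here.

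The receptor-regulated SMAD genes differed in their number of sites. Smad2 had 1 site, chr18:76241072-76241472, which spans an end of the gene. It held 1, 3 and 0 reads in UTX-deficient cells, against 57, 37 and 33 in WT cells, an average of 42.2 ± 2.15 normalized reads in WT cells (SD, n = 3). Its fold (log2) in the authors' deposited table was -4.34, and 3.13% of the signal was left (0.839 to 8.21).

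Smad3, whose product binds DNA with SMAD4 and carries most of the transcriptional response to TGF-beta, had 6 sites spread over 53011 bp. The sites farthest inside the gene had the most signal in WT cells. The site chr9:63720797-63721197, 36997 bp after the start, held 3, 4 and 0 reads in UTX-deficient cells, against 74, 67 and 46 in WT cells, or 63.0 ± 8.76 normalized reads in WT cells (SD, n = 3). The promoter site, chr9:63757953-63758353, held 2, 2 and 0 reads in UTX-deficient cells, against 19, 25 and 18 in WT cells, or 21.6 ± 6.29 normalized reads in WT cells (SD, n = 3), and had the lowest mean of the 6. The WT libraries did not overlap between these 2 sites, but those of the promoter site overlapped those of the next lowest, chr9:63740532-63740932, at 23.8 ± 6.46 normalized reads (SD, n = 3).

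The share of signal left also varied along Smad3, within wide intervals. At chr9:63706398-63706798, 51396 bp after the start, the libraries held 3, 10 and 0 reads in UTX-deficient cells, against 63, 41 and 37 in WT cells. This left 9.16% of the signal (4.76 to 16.2), the most of the 26 sites, and 10 of its 13 reads came from the second UTX-deficient library. At chr9:63737410-63737810 there was 1 read in each deep UTX-deficient library and 0 in the near-empty one, against 46, 38 and 27 in WT cells, which left 1.79% (0.214 to 6.62). The gene model Gm51710 overlaps this site. The intervals of these sites overlap. The site at chr9:63740532-63740932 held 2, 0 and 0 reads in UTX-deficient cells, against 34, 26 and 13 in WT cells, and the sixth, 1214 bp before the start at chr9:63759008-63759408, held 1, 4 and 0 reads in UTX-deficient cells, against 29, 22 and 28 in WT cells.

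Smad4, the partner shared by the TGF-beta and the BMP branch, had no listed site, and no site of another gene lay inside it. The nearest listed site was 62019 bp away and was assigned to Mex3c. A gene with no listed site may have had no peak, or a peak that did not pass the authors' limit, and the table does not tell these apart.

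Smad7, the inhibitory SMAD that TGF-beta itself induces, had 6 sites over 59486 bp, of which 3 overlap the gene and 3 lie beyond one end. The strongest, chr18:75377451-75377851, lies inside the gene 10286 bp from an end. It held 2, 9 and 0 reads in UTX-deficient cells, against 103, 99 and 77 in WT cells, or 95.3 ± 13.9 normalized reads in WT cells (SD, n = 3). The site that spans an end of the gene, chr18:75367187-75367587, had the lowest mean, with 0, 3 and 0 reads in UTX-deficient cells, against 29, 26 and 25 in WT cells. Its WT level was 27.5 ± 4.50 normalized reads (SD, n = 3), and no WT library there reached the lowest WT library at the strongest site. The gene model Gm20544 lies 99 bp from it, so it is also near a second gene.

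The sites beyond Smad7 form a row toward Ctif, a translation factor gene. They lie 14283, 23435 and 30337 bp from Smad7, and each is nearer to another gene. The first is 9757 bp from the gene model Gm41776, the second is 11435 bp from Ctif and the third 4533 bp from Ctif, so their assignment to Smad7 is uncertain. The middle one, chr18:75419370-75419770, held 2, 4 and 0 reads in UTX-deficient cells, against 73, 50 and 42 in WT cells, and its fold (log2) in the authors' deposited table was -4.36. The nearest, chr18:75410218-75410618, held 3, 3 and 0 reads in UTX-deficient cells, against 73, 49 and 29 in WT cells. The farthest, chr18:75426272-75426672, held 5, 5 and 0 reads in UTX-deficient cells, against 58, 42 and 30 in WT cells, and kept 7.64% of the signal (3.58 to 14.5). At the remaining site, chr18:75387491-75387891 inside the gene, UTX-deficient cells had 4, 4 and 0 reads, against 38, 45 and 30 in WT cells. Smad7 sites thus ranged from 3.61% to 7.64% of signal left, a range that lies within the intervals of single sites.

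Smurf1, the ubiquitin ligase that SMAD7 brings to the receptor, had 1 site, chr5:144964998-144965398, 632 bp after its start. That site held 3, 7 and 0 reads in UTX-deficient cells, against 71, 61 and 40 in WT cells, where it averaged 57.5 ± 8.23 normalized reads (SD, n = 3). The share of signal left was 5.77% (2.72 to 10.9), above the median of the 26 sites, and the authors' deposited table gives a fold of -3.83 (log2).

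Ski, the founding member of the SKI family of corepressors, had 6 sites over 61130 bp, 5 inside the gene and 1 just before its start. The one before the start, chr4:155223162-155223562, lies 827 bp upstream and had the highest WT mean of all 26 sites. It held 6, 13 and 0 reads in UTX-deficient cells, against 164, 133 and 106 in WT cells, or 135.8 ± 8.62 normalized reads in WT cells (SD, n = 3). Next came chr4:155200786-155201186, 21549 bp after the start, with 2, 10 and 0 reads in UTX-deficient cells, against 117, 105 and 77 in WT cells. At Ski the site nearest the start thus had the most signal, and all 3 WT libraries at the upstream Ski site lay above all 3 at the second Ski site.

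The other Ski sites inside the gene were weaker in WT cells. The one farthest from the start, chr4:155162433-155162833, held 1, 0 and 0 reads in UTX-deficient cells, against 49, 38 and 27 in WT cells, and its 0.871% of signal left (0.0219 to 4.95) was the lowest of the 26. The authors' deposited table gives it a fold of -5.01 (log2), the second largest of the 26. The site chr4:155178373-155178773 held 1, 5 and 0 reads in UTX-deficient cells, against 84, 63 and 40 in WT cells. The last pair had the highest shares of signal left in Ski. Of these, chr4:155168799-155169199 held 3, 3 and 0 reads in UTX-deficient cells, against 34, 35 and 23 in WT cells, and chr4:155209483-155209883 held 3, 2 and 0 reads in UTX-deficient cells, against 26, 26 and 17 in WT cells.

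**Figure D3:**
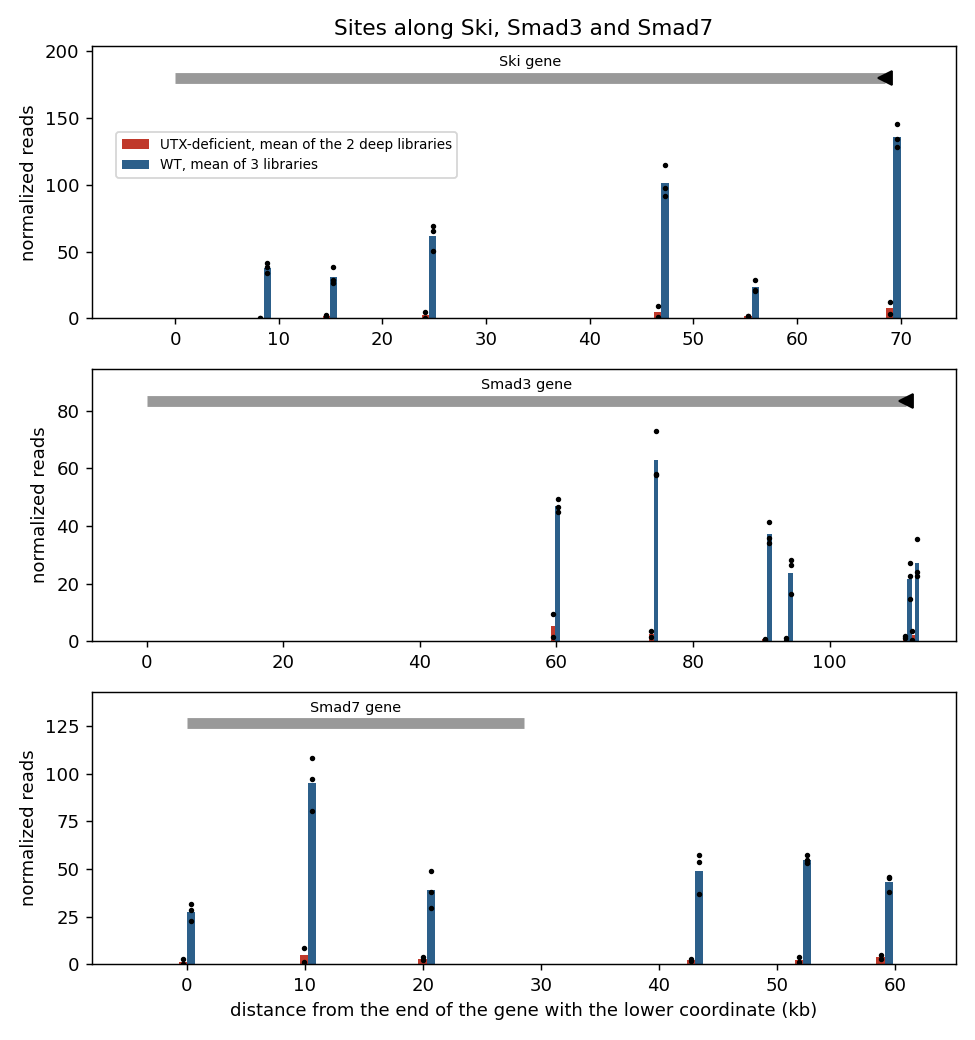
Normalized reads at the 6 sites each of Ski, Smad3 and Smad7 against distance in kb from the gene end with the lower coordinate, with red bars for the mean of the 2 deep UTX-deficient libraries and blue bars for the mean of the 3 WT libraries. Dots are libraries, the grey bar is the gene, and an arrowhead marks the start and direction of transcription where the annotation used gives it. The tallest WT bar is just before the start of Ski (135.8) and inside the gene in Smad3 (63.0) and Smad7 (95.3).

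Skil, the second SKI family gene, had 1 site, chr3:31094421-31094821, which lies 237 bp outside an end of the gene. It held 1, 2 and 0 reads in UTX-deficient cells, against 143, 120 and 74 in WT cells, or 112.1 ± 18.8 normalized reads in WT cells (SD, n = 3). The log2 fold of -5.94 (FDR 2.69e-18) was the second largest decrease of the whole authors' deposited table, while by WT signal the site ranked 271 of 6739. With 3 reads in all in UTX-deficient cells, 0.884% of the signal was left (0.181 to 2.61). That interval lies below those of 5 of the other 25 sites and overlaps the rest. Overlap of intervals is not a test of a difference, and the loss at Skil was not tested against that at the other sites.

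The sites of other genes with the pair of group concentrations most like that of Skil were at Zfp36l1, an mRNA decay factor gene, Fkbp5, a co-chaperone gene of the glucocorticoid receptor, the gene model Gm15559, Fmnl1, a formin gene, and Tle5, a gene of the Groucho family. Likeness was the Euclidean distance of the 2 log2 concentrations, and it was 0.0685, 0.129, 0.144, 0.179 and 0.346 in this order. In UTX-deficient cells the concentration was listed at 0 at Skil, Zfp36l1, Fkbp5 and Tle5, so likeness among these rests on the WT concentration alone. The Fkbp5 site is 36544 bp from that gene. The Zfp36l1 site held 1, 2 and 0 reads in UTX-deficient cells, against 131, 112 and 76 in WT cells.

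**Figure D4:**
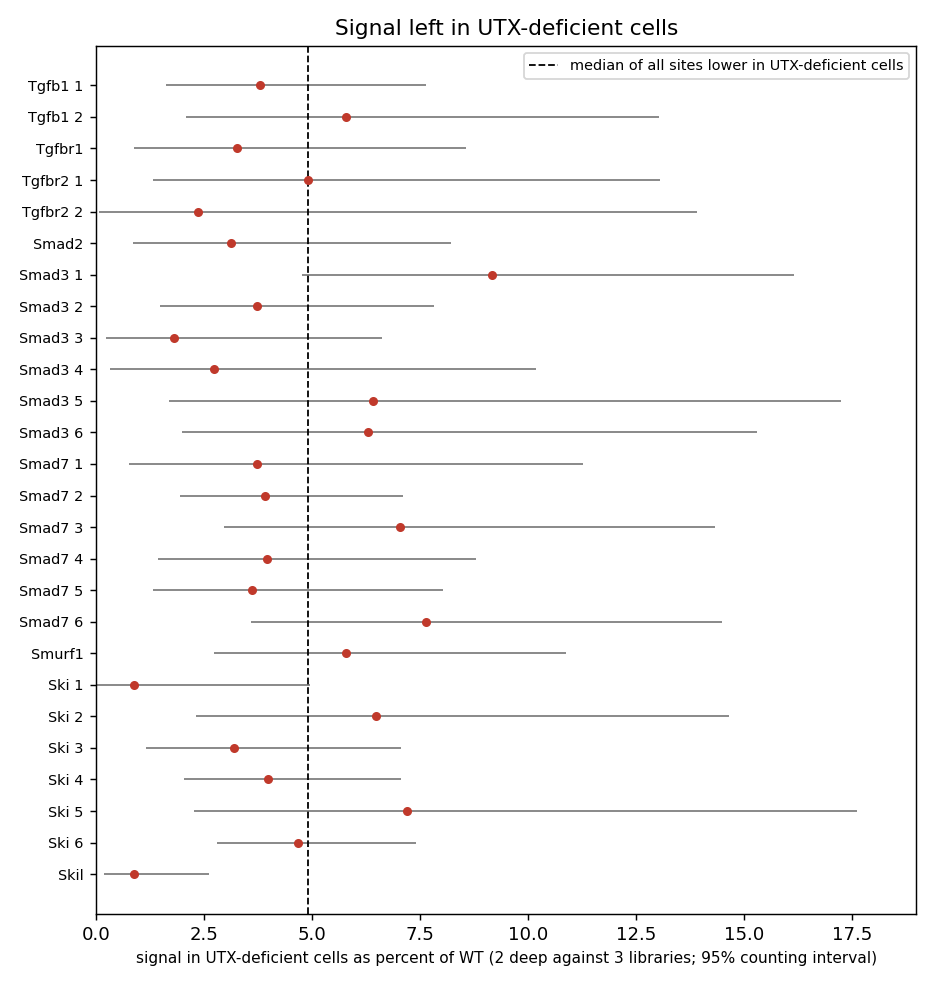
Signal in the 2 deep UTX-deficient libraries as percent of the 3 WT libraries at the 26 sites, with 95% intervals for counting error, and a dashed line at 4.90%, the median of all sites lower in UTX-deficient cells. The Skil interval (0.181 to 2.61) and that of the first Smad3 site (4.76 to 16.2) do not overlap, and most others overlap each other.

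By its strongest site in WT cells, the order of the genes was Ski (135.8), Skil (112.1), Smad7 (95.3), Tgfb1 (70.0), Smad3 (63.0), Smurf1 (57.5), Smad2 (42.2), Tgfbr1 (40.9) and Tgfbr2 (27.4 normalized reads). The WT libraries of neighbours in this order overlapped at every step but that between Smurf1 and Smad2. In this order the repressor genes were at the upper end and the receptor genes at the lower end, with steps between neighbours that were mostly within the spread of the libraries. The order depends on the site taken, since genes with more sites have more to choose from. Ski has 6 sites and Tgfbr1 has 1, and the weakest Ski site averaged 23.4 normalized reads in WT cells, below the Tgfbr1 site.

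The sites lay farther from gene ends than is usual in the table. The nearer end of the assigned gene was a median of 9422 bp from the middle of the 26 sites, against 644 bp for all placed sites lower in UTX-deficient cells, and 30.8% of the 26 lay within 1 kb of an end, against 53.2%. The share that overlaps the gene was close, at 73.1% and 76.4%. Ski, Smad3 and Smad7 hold 18 of the 26 sites, and sites of one gene share its neighbourhood, so these shares describe few genes. Of 21900 protein-coding genes, 23 have 6 or more sites, or 0.476% of those with any site, and 3 of these are Ski, Smad3 and Smad7. Only 3 of the Smad7 sites overlap that gene, and the others are each nearer to another gene. The 9 genes with a site have a median length of 68461 bp, against 26225 bp for all genes with a site, and genes with 6 or more sites have a median length of 94413 bp. The part of gene length in the number of sites was not tested.

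Around these 10 genes, 31 of 80 other genes of the pathway (38.8%) had a site lower in UTX-deficient cells and none had a higher one, against 22.1% of all protein-coding genes. The 80 genes were chosen with earlier results of these data known, so the difference between these shares was not tested. Some of these sites lie far from the gene, and 16 of the 80 genes had one within 1 kb of a gene end. Corepressors and partners of SMADs had such a site most often, 8 of 10, and genes of the branch that runs outside the SMADs (Map3k7, Tab1, Tab2 and Traf6) had none. The counts were 2 of 17 for ligands and their activation, 4 of 11 for receptors, 2 of 4 for other SMADs, 8 of 18 for modulators of receptors and SMADs, and 7 of 16 for known targets.

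Among the partners, Sin3a, a scaffold of histone deacetylase complexes, had a site with 9, 16 and 0 reads in UTX-deficient cells, against 301, 214 and 183 in WT cells. Where one of the pathway genes had several sites, its values here and below are for the site with the largest decrease. Ep300, an acetyltransferase that SMADs recruit, had a fold (log2) of -4.98 as the authors' deposited table gives it, and -2.17 at its other site. Tgif2, a corepressor that binds SMADs, had -4.51. Zeb1, a zinc finger repressor, kept more signal, with 10, 14 and 0 reads in UTX-deficient cells, against 61, 78 and 51 in WT cells. Of the modulators, Trim33, a ubiquitin ligase that binds SMADs, had a site with 3, 9 and 0 reads in UTX-deficient cells, against 163, 144 and 96 in WT cells, 26994 bp from the gene. Ppm1a, a phosphatase of SMADs, had the largest decrease of the 80 genes. The authors' deposited table gives it a fold of -5.19 (log2) at a site 44405 bp from the gene. Pmepa1, which sequesters SMADs, and Usp15, a deubiquitinase that acts on the receptor, had -4.39 and -3.53. The Pmepa1 site is 72752 bp from the gene.

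Targets of the pathway included Junb, an AP-1 subunit, with 3, 5 and 0 reads in UTX-deficient cells, against 99, 68 and 56 in WT cells. Itgae, the integrin CD103 of tissue-resident T cells that TGF-beta induces, held 1, 2 and 0 reads in UTX-deficient cells, against 52, 45 and 24 in WT cells. Klf10, an early TGF-beta response gene, and Ifng, the interferon gamma gene that TGF-beta represses, had -4.91 and -4.38 as the log2 fold of the authors' deposited table. The Ifng site is 21659 bp from the gene. The receptor class had the smallest median fold of the classes with a site, -2.33 in the authors' deposited table, and ligand genes had -3.38. The named genes of both ran from -3.47 at Furin, the protease that matures TGF-beta, and -3.38 at Tgfb3, a second ligand, through -3.27 at Tgfbr3, -2.62 at Eng and -2.33 at Bmpr2 to -2.02 at Acvr2a. The Acvr2a site is 491436 bp from that gene, so its assignment says little about it. The other SMAD genes with a site were Smad5 (-2.71), which serves the BMP branch, and Smad6 (-3.14), its inhibitor.

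**Figure D5:**
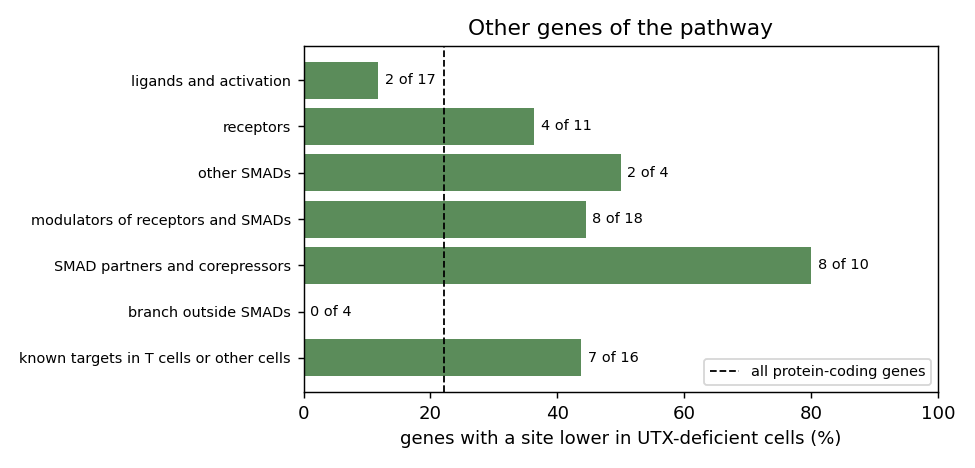
Share of genes in each class of 80 other pathway genes that have a site lower in UTX-deficient cells (bars, with counts), and the share of all protein-coding genes, 22.1% (dashed line). Partners and corepressors reach 8 of 10 genes, and ligands and the branch outside SMADs lie below the line.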

How the data were processed

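UTX CUT&Tag was sequenced as 50 bp paired ends, per the labels' protocols. The submitters' processing notes name build mm10 and the tools DiffBind, MACS2, Picard, SAMtools, Bowtie2, cutadapt and FastQC. Versions, and whether peak calling used single or pooled samples, are not given in the sources used. IgG libraries were not used here. Per the file headers the deposited table is a DiffBind report of 6739 sites of 401 bp. Its concentrations and fold are log2 values as deposited, and its p-values and FDR (a q-value) are the authors' own, all under 0.05.

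The FDR, p-value and rank of the sites together give 8293 tests behind the table. The 10 genes, the pathway list and the markers were chosen with earlier results of these data known. All sites of the 10 genes are named, and of the pathway list up to 4 genes per class by FDR. A group's mean, raised from log2 and multiplied by 3, adds up its libraries' whole reads divided by their depths, and exactly 1 solution was found at 6733 of 6739 sites. The search held the depths to a sum of about 6, so their sum of 6 is not a check of the recovery. One read of the near-empty library is worth 173.18 normalized reads. The recovery was tested on simulated data, whose depths were adjusted after a first attempt failed. Recovered reads were tested with limma 3.58.1 (trend) in R 4.3.3 on log2 of normalized reads plus 0.5, with Benjamini-Hochberg adjustment over the 6733 sites. These are the reads the authors tested, so limma adds no independent support, and the p-values measure only the spread between these samples. With 3 libraries in each group, the smallest two-sided p of an exact permutation test is 0.1. Gene positions and promoter sequences are RefSeq's for GRCm38.p6 and were matched by symbol. Starts could be placed for 6 of the 9 genes, and positions for Smad2, Smad7 and Skil are given by gene ends.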

Additional observations from a re-analysis of the deposited data

How the results depend on the processing

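All 26 sites were called lower in UTX-deficient cells by limma on recovered reads (adjusted p under 0.05), as were 99.7% of all solved sites, with a pseudocount of 0.5 or 2, with at least 10 reads per site, and without each library in turn (26 to 26 sites). The largest adjusted p without a library was 0.0115 by limma. The median log2 difference was -5.02 with all libraries, -4.38 without the near-empty library, whose 0 reads limma takes as measured, and -3.89 with a pseudocount of 2. Those 0 reads go with how the sites were chosen. The ratios to WT cells by single UTX-deficient library were added after seeing the data and range from 13.3-fold to 42.5-fold. In the authors' deposited table the 26 sites became 25 at an FDR of 0.01 or 0.001 and 25 beyond a log2 fold of 3, the outer Tgfbr2 site being the one lost. Within 10 kb of the gene or inside it there were 23, and within 1 kb of a gene end 8, in 8 genes. The pathway list had 31 genes with a lower site, 28 and 21 at those FDR limits, 22 beyond that fold, 28 within 10 kb and 16 within 1 kb of a gene end. The narrower windows hold fewer sites by construction.

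No paired analysis was possible because the table's columns and the recovered libraries carry no replicate number. The planned edgeR test and TMM factors were not run, since the table has no column of counts and nearly all listed sites differ in one direction. At 1 to 19 reads per site in the 2 deep UTX-deficient libraries, the intervals of the signal left are wide and mostly overlap. Differences between sites in the signal left were not tested.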
